A study of Mus musculus with 12 samples.

Results

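The integrin and laminin subunits are the genes for the α and β chains of integrins and for the α, β and γ chains of laminins, taken by gene symbol. The mouse annotation used here holds 37 such symbols, and 32 of them were measured among 15204 genes: 15 integrin α chains, 7 integrin β chains and 10 laminin chains. Itga10, Itga11, Itgad, Itgb8 and Lama3 were not analysed here. RNA came from 4 sources of mouse brain endothelial cells, with 3 microarrays each. Non-cultured cells came from brain microvessels and were further purified by sorting with magnetic beads that bind PECAM1, a junctional adhesion molecule of endothelium. Single-cultured cells were microvascular cells kept on transwell filters for 5 days. Co-cultured cells were kept on the same kind of filter for 5 days while glial cultures 3 weeks old grew in the lower well, without contact. The b.End5 cells are a single endothelioma line, made from mouse brain endothelium transformed with the polyoma middle T antigen. The labels give no strain, genotype or age of the mice. Bead sorting is named for that first source alone, so culture and sorting cannot be told apart in comparisons with it. Whether arrays of a source came from separate preparations is not stated, so the p-values cover the spread from array to array, which may be technical.

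Laminins are cross-shaped trimers of an α, a β and a γ chain that assemble into the sheet of the basement membrane on which endothelial cells sit. Integrins are pairs of an α and a β chain that span the plasma membrane, bind laminins, collagens, fibronectin and other matrix or cell-surface ligands outside, and couple to the actin cytoskeleton inside through talin and kindlin. In brain microvessels, endothelial cells and pericytes share an inner basement membrane rich in the laminin α4 and α5 chains, while an outer one with the α1 and α2 chains belongs to the glial side. The β1 integrin chain is the common partner of most α chains and is needed for vessel integrity.

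All values are on the authors' log2 scale, where 1 unit is a 2-fold difference, and a level of one gene cannot be set against that of another. Array medians lay between 7.21 and 7.40. An array's no-target level, taken as the 95th percentile of its 27 Bacillus subtilis controls, lay between 4.01 and 4.46, and 79.4% to 82.9% of genes were above it. The 12 endothelial markers were above it in all 4 sources, with a mean of 12.45 to 12.66 in non-cultured, 12.15 to 12.48 in single-cultured, 11.97 to 12.25 in co-cultured and 11.99 to 12.03 in b.End5 arrays. Replicate 2 of b.End5 stood apart: 1106 and 1193 genes differed by over 1 log2 unit between it and replicates 1 and 3, against 42 between those. Among the integrin and laminin subunits, 8 and 7 did so, against 0. The counts of called subunits against non-cultured cells were 7 higher and 8 lower both with and without that array, and single values that rest on it are given both ways.

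A subunit was called where its p from limma, after Benjamini-Hochberg adjustment across 15204 genes (adjusted p), was under 0.05 and its log2 difference was at least 1 in size. Each difference is followed by its standard error from that model. In single-cultured cells, 12 of the 32 subunits were called higher than in non-cultured cells and 3 lower, where 7.18% of all genes were called higher and 5.82% lower. In co-cultured cells, 11 were higher and 2 lower, with 9.1% and 6.2% of all genes. In b.End5 cells, 7 were higher and 8 lower, with 9.1% and 9.06% of all genes. As shares of the 32 subunits, these were 37.5% higher and 9.38% lower, 34.4% and 6.25%, and 21.9% and 25.0%. The cultured primary cells thus had more subunits called higher than lower, while b.End5 cells had similar numbers in both directions. As deposited, the balance over all genes went the same way in each comparison. With each array centred on its median, 978 genes in all were called higher and 978 lower in single-cultured than in non-cultured cells. In b.End5 cells the centred counts were 1227 and 1505. The 2 lower subunits in co-cultured cells are near the share of all genes.

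Co-cultured and single-cultured cells differed in 1 subunit, which was lower with glia, where 0.901% of all genes were called higher and 0.289% lower. With each array centred on its median, 1166 genes in all were called higher and 1213 lower in co-cultured than in non-cultured cells, against 1384 and 942 as deposited. The same centring gave 107 higher and 60 lower for co-cultured against single-cultured cells, against 137 and 44. The counts of subunits in both comparisons stayed at their values under that centring. The median difference of the 32 subunits was 0.11 for single-cultured against non-cultured cells, beside -0.0025 over all genes. It was 0.33 beside -0.037 for co-cultured cells, and -0.02 beside 0.078 for b.End5 cells. A test for any difference among the 4 sources (limma's moderated F, adjusted p under 0.05) passed for 25 subunits, where 48.6% of all genes passed. The 3 comparisons with non-cultured cells share the same 3 arrays and are given side by side without an overlap between them. Without the 2-fold minimum, the test passed for 15 higher and 4 lower subunits in single-cultured cells (15.5% and 12.8% of all genes). It passed for 13 and 6 in co-cultured (18.7% and 15.7%) and for 8 and 9 in b.End5 cells (21.3% and 16.7%), and for 0 and 2 between the cultures (1.82% and 0.704%). The 3 arrays of each group did not overlap with those of non-cultured cells for 20, 21 and 22 subunits in the same order, where 45.3%, 51.1% and 49.2% of all genes did not. In bulk RNA, fewer cells of a type and less RNA per cell cannot be told apart.

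**Figure D1:**
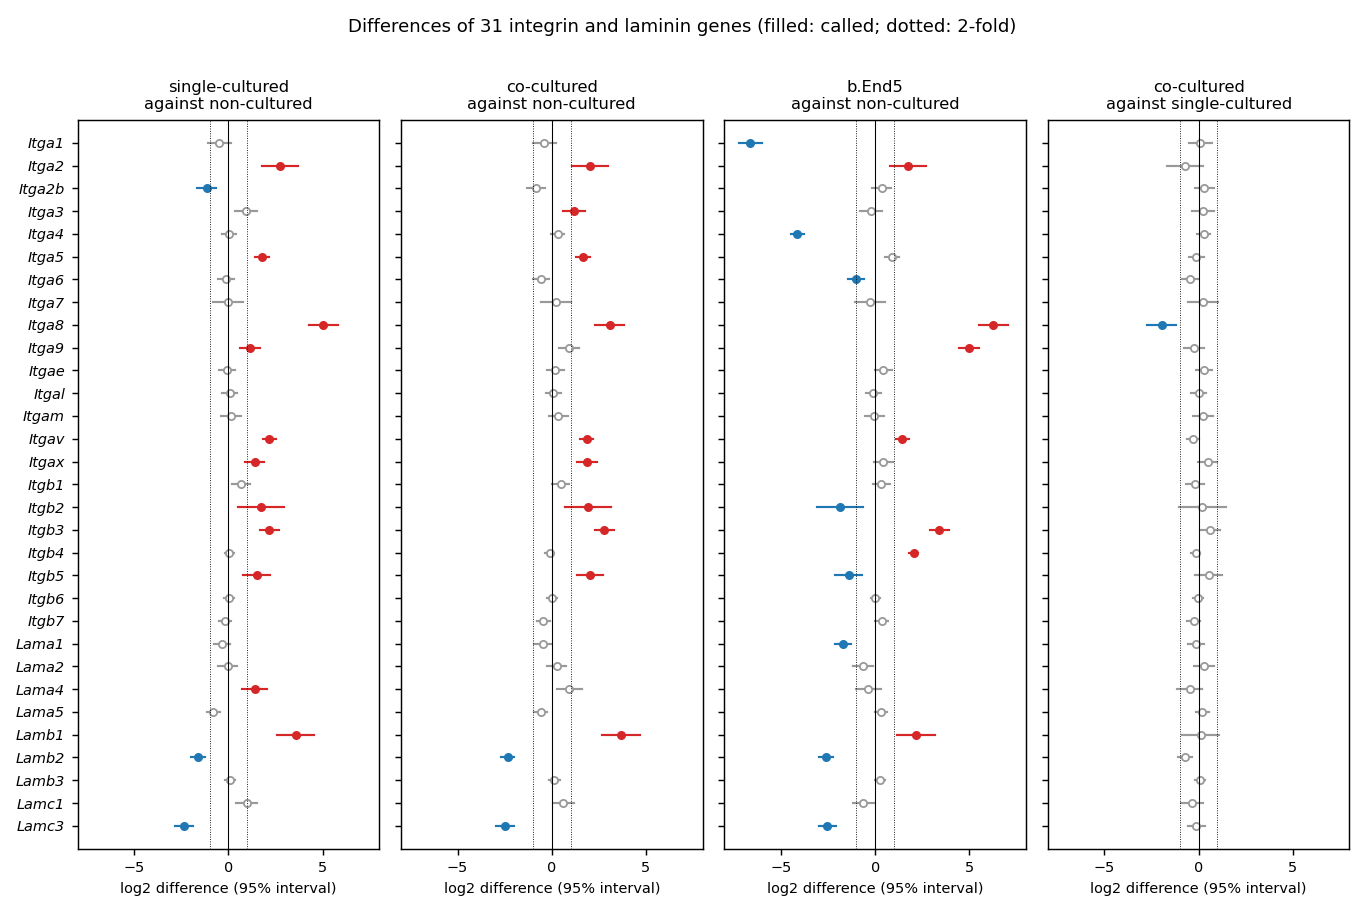
Log2 differences of 31 integrin and laminin genes in 4 comparisons, with 95% intervals from limma. Filled points were called, red for higher and blue for lower, and dotted lines mark a 2-fold difference. Filled points to the right of the dotted line outnumber those to the left in both cultures of primary cells, and co-cultured against single-cultured cells show 1 filled point, Itga8.

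Of the 10 laminin chains, 3 were called higher and 2 lower in single-cultured than in non-cultured cells. The counts were 2 and 2 in co-cultured and 1 and 3 in b.End5 cells. The shares of all genes were 7.18% and 5.82%, 9.1% and 6.2%, and 9.1% and 9.06% in the same order. The 1 higher chain in b.End5 cells, 10% of the chains, is near that share. Lamb1, the β chain joined to α4 and α5 in the widespread endothelial laminins, was 11.9-fold higher in single-cultured and 12.7-fold higher in co-cultured than in non-cultured cells. Lamb2, the alternative β chain found in the basement membrane of mature vessels, neuromuscular junction and glomerulus, was 3.07-fold and 5.10-fold lower. Lamc3, a γ chain known from the retina and the surface of the cortex, was 5.14-fold and 5.57-fold lower.

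Lamb1 read 8.47, 7.92 and 8.18 in the 3 non-cultured arrays. It read 11.81, 11.79 and 11.68 in single-cultured, 11.69, 11.83 and 12.06 in co-cultured, and 11.05, 8.89 and 11.08 in b.End5 arrays. All cultured arrays were above all non-cultured ones, and b.End5 replicate 2 was the lowest of the cultured cells. The log2 difference from non-cultured cells was 3.57 ± 0.45 in single-cultured (adjusted p = 0.000114) and 3.67 ± 0.45 in co-cultured cells (adjusted p = 7.4e-05). In b.End5 cells it was 2.15 ± 0.45 (adjusted p = 0.00268), and 2.88 without replicate 2.

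Lamb2 went the other way, with 11.42, 11.28 and 11.06 in non-cultured arrays and 9.59, 9.63 and 9.69 in single-cultured arrays. Co-cultured arrays read 9.01, 8.81 and 8.89, and b.End5 arrays 8.38, 9.03 and 8.52. Its level in non-cultured cells did not overlap with any other source. The log2 difference from non-cultured cells was -1.62 ± 0.16 in single-cultured cells (adjusted p = 1.74e-05). It was -2.35 ± 0.16 in co-cultured (adjusted p = 6.77e-07) and -2.61 ± 0.16 in b.End5 cells (adjusted p = 1.48e-07). Lamb1 and Lamb2, whose products take the same place in laminin trimers, moved in opposite directions in all 3 comparisons with non-cultured cells.

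The promoters of both genes are shown because these chains moved in opposite directions. Each sequence holds the 250 bases before the start given in the promoter set, 5′ to 3′ on the gene's own strand, from RefSeq on GRCm38.p6. This start differs from that of the gene record, which is 31265146 for Lamb1 and 108479847 for Lamb2. Both lie inside the windows, so part of each window is within the annotated gene. The Lamb1 matches below lie after the start of its gene record. Lamb1 lies at chr12:31265043-31265292 on the plus strand and Lamb2 at chr9:108479612-108479861 on the plus strand. Capitals mark matches, on either strand, to the GC box GGGCGG or to the CACCC box CCACCC.
Lamb1: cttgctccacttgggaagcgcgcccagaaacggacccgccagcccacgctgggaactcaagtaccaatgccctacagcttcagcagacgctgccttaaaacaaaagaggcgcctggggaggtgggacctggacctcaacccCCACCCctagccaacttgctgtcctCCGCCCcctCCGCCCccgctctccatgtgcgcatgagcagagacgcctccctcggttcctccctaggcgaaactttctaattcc
Lamb2: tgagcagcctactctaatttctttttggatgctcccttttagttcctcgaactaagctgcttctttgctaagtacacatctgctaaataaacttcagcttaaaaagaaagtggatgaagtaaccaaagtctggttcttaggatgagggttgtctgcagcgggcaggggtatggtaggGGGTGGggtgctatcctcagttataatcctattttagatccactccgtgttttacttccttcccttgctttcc
The Lamb1 window held 2 GC boxes, beginning 84 and 75 bases before the start, and 1 CACCC box beginning 109 bases before it, with a GC content of 62.0%. The Lamb2 window held 0 GC boxes and 1 CACCC box, 73 bases before the start, with a GC content of 43.6%. Among 32851 promoter windows of the same length, 32.7% held a GC box and 28.1% a CACCC box. Of 23 windows that matched 20 of the 32 subunits, 9 held a GC box and 8 a CACCC box. Neither window held the AP-1 site TGANTCA (6.75% of all windows), the TEAD site GGAATG (12.6%), the TATA box TATAAA (12.4%) or the Ets site CCGGAAG (6.91%). A match is a description of these letters and not a binding site.

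Lamc3 read 7.03, 7.28 and 6.46 in non-cultured arrays, and no array of another source came above 4.74. It read 4.36, 4.74 and 4.58 in single-cultured, 4.40, 4.70 and 4.24 in co-cultured and 4.49, 4.52 and 4.15 in b.End5 arrays. The last of these was at or under its no-target level. The log2 differences from non-cultured cells were -2.36 ± 0.21 (adjusted p = 6.66e-06), -2.48 ± 0.21 (adjusted p = 3.53e-06) and -2.53 ± 0.21 (adjusted p = 1.73e-06) in the same order. Of 10 pericyte markers, 1 was called higher and 4 lower in single-cultured cells (7.18% and 5.82% of all genes). In co-cultured cells 2 of these markers (1 without co-cultured replicate 2) were higher and 3 lower (9.1% and 6.2%). The log2 of their summed level ran from 11.68 to 12.04 in non-cultured, 10.08 to 10.57 in single-cultured, 11.46 to 12.21 in co-cultured and 8.46 to 10.02 in b.End5 arrays, where Rgs5 and Notch3 were at or under the no-target level. The part of pericyte RNA in the levels of Lamc3 and Lamb2 was not tested.

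Lama4 and Lama5 encode the α chains of the 2 laminins of endothelial basement membranes. Lama4 read 10.89, 10.49 and 10.57 in non-cultured and 12.20, 11.81 and 12.15 in single-cultured arrays, a difference of 1.40 ± 0.30 (adjusted p = 0.0042) with no overlap. Co-cultured arrays read 11.26, 11.52 and 11.99, and their difference of 0.94 ± 0.30 (adjusted p = 0.0316) was under 2-fold. The b.End5 arrays read 10.52, 9.50 and 10.81 and overlapped with the non-cultured ones. Lama5 showed the reverse order, at 10.38, 10.57 and 10.31 in non-cultured and 9.58, 9.58 and 9.73 in single-cultured arrays. That difference, -0.79 ± 0.15 (adjusted p = 0.00196), and the one in co-cultured cells, -0.59 ± 0.15 (adjusted p = 0.0101), passed the test but were under 2-fold. In b.End5 arrays Lama5 read 10.67, 10.81 and 10.70, above all other arrays, and was 2.14-fold higher than in single-cultured cells (adjusted p = 0.000186).

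Lamc1, the γ chain of nearly all laminins, read 12.06, 11.84 and 11.67 in non-cultured arrays. Single-cultured arrays read 12.87, 12.72 and 12.87 and lay above them by 0.96 ± 0.26 (adjusted p = 0.0152), under 2-fold. Co-cultured arrays read 12.25, 12.41 and 12.73, and b.End5 arrays 11.53, 10.50 and 11.65. The gene was 3.01-fold lower in b.End5 than in single-cultured cells (adjusted p = 0.000627), and the log2 difference was -1.59 with and -1.23 without b.End5 replicate 2.

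Lamb3, a β chain known from epithelial basement membranes, stayed between 4.68 and 5.24 on all 12 arrays and was called in no comparison. Of the α chains of the glial basement membrane, Lama2 lay between 6.71 and 8.10 and was called in no comparison. Lama1 lay between 6.14 and 7.06 in primary cells and read 5.13, 5.03 and 5.38 in b.End5 arrays, which was 3.30-fold lower than in non-cultured cells (adjusted p = 2.67e-05).

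**Figure D2:**
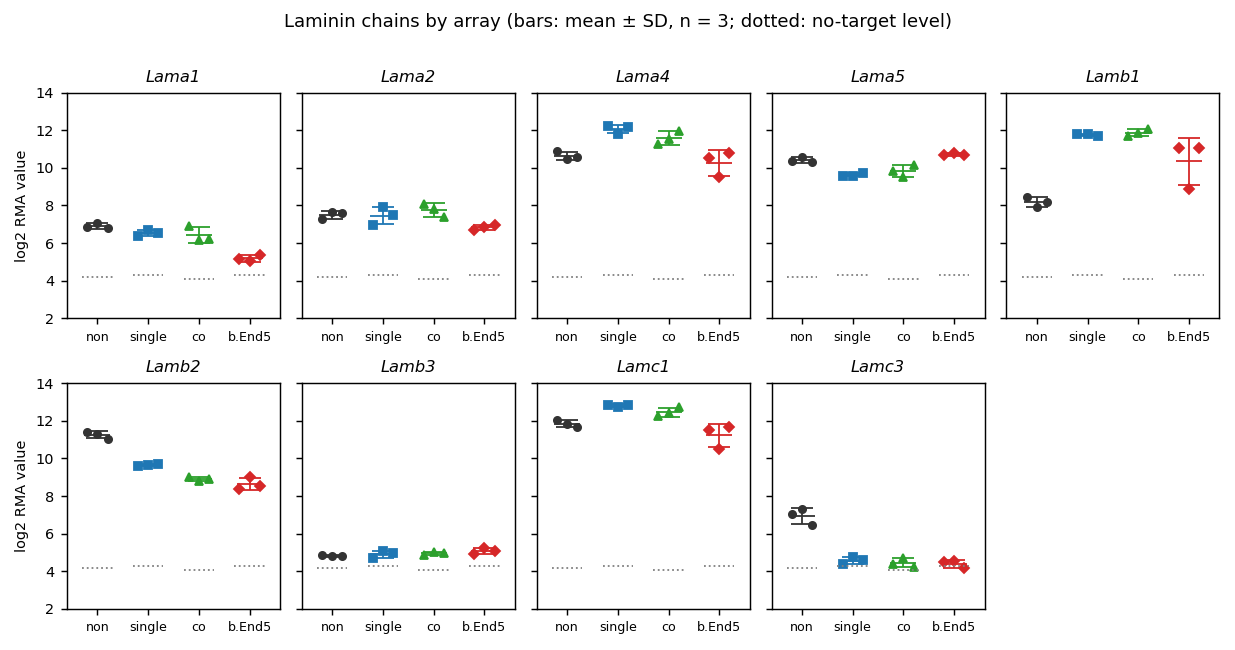
Log2 RMA value of 9 laminin chains on each array, with the mean and SD of 3 arrays as bars and the mean no-target level as a dotted line. On the horizontal axis, non, single and co stand for non-cultured, single-cultured and co-cultured cells. Lamb1 lies between 7.92 and 8.47 in non-cultured arrays and above that in all others, while Lamb2 lies between 11.06 and 11.42 there and below that in all others.

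Among the integrins, Itga5, Itga8 and Itgav, α chains that bind fibronectin, vitronectin and related ligands through their RGD sequence, were higher in both cultures of primary cells. Itga2b, a further α chain that binds RGD ligands, was called lower in single-cultured cells at -1.15 and differed by -0.84 in co-cultured cells, under 2-fold. The β chains Itgb3 and Itgb5, partners of Itgav, were higher as well, by 4.53-fold and 2.81-fold in single-cultured and 6.88-fold and 4.08-fold in co-cultured cells. Itgb1, the partner of most α chains, was called in no comparison. Its arrays read 12.06, 11.60 and 11.84 in non-cultured, 12.65, 12.02 and 12.83 in single-cultured, 12.44, 12.24 and 12.21 in co-cultured and 11.85, 12.31 and 12.34 in b.End5 cells. The difference in single-cultured cells, 0.66 ± 0.21, passed the test (adjusted p = 0.0378) but was under 2-fold, and the arrays overlapped.

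Itga8, the α chain of a receptor for nephronectin and other RGD ligands that is best known from kidney development and smooth muscle, had the largest rise among the 32 subunits in single-cultured and in b.End5 cells. It read 4.63, 4.36 and 4.68 in non-cultured arrays, near but above the no-target level. It read 9.55, 9.78 and 9.48 in single-cultured, 7.57, 7.90 and 7.44 in co-cultured and 11.40, 9.74 and 11.35 in b.End5 arrays. The 3 cultured sources were all above non-cultured cells, and co-cultured arrays lay between non-cultured and single-cultured ones without overlap. The differences from non-cultured cells were 5.04 ± 0.35 (33.0-fold, adjusted p = 9.43e-07), 3.08 ± 0.35 (8.45-fold, adjusted p = 4.13e-05) and 6.27 ± 0.35 (77.1-fold, adjusted p = 6.31e-08). Without b.End5 replicate 2 the last was 6.81.

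Itga8 was also the subunit called between the 2 cultures. It was 3.90-fold lower with glia in the lower well, a log2 difference of -1.96 ± 0.35 (95% interval from -2.74 to -1.19, adjusted p = 0.0132). Without single-cultured replicate 1 the difference was -1.99 and the adjusted p was 0.0535, which ended the call. Markers of other cells moved between the same arrays, where 0.901% of all genes were called higher and 0.289% lower. Of 7 fibroblast markers, 3 were called higher in co-cultured than in single-cultured cells (Col1a1, Col1a2 and Col3a1), a count that was 1 without single-cultured replicate 1, single-cultured replicate 3 or co-cultured replicate 2. With the replicate number as a block within both cultures the count was also 1 (adjusted p = 0.0789 for Col1a1 and 0.0892 for Col3a1), and with only the 2 groups fitted all 3 calls were lost (adjusted p from 0.0529 to 0.105). Of 10 pericyte markers, 2 were called higher in co-cultured than in single-cultured cells (Rgs5 and Cd248), with a list median of 0.86. The call for Cd248, 1.44 ± 0.32 (adjusted p = 0.0421), ended under each other scaling, both replicate blocks, the fit of 2 groups and most fits without 1 array (adjusted p up to 0.177). Of the fibroblast markers, only collagens were called higher in the cultures than in non-cultured cells. The median difference of all 7 from non-cultured cells was -0.22 in single-cultured, 0.12 in co-cultured and -1.04 in b.End5 cells. Between the cultures it was 0.72. The log2 of the summed fibroblast level ran from 8.70 to 9.49 in non-cultured and 9.87 to 10.62 in single-cultured arrays. It ran from 11.48 to 13.82 in co-cultured and 7.44 to 7.90 in b.End5 arrays. Lum and Dpt were at or under the no-target level in all 4 sources. Of 5 smooth muscle markers, 3 were called higher in single-cultured (7.18% of all genes) and 4 in co-cultured (9.1%) than in non-cultured cells. In b.End5 cells 3 of these markers were lower (9.06%). Their summed level ran from 9.97 to 11.25, 13.09 to 13.64, 13.29 to 14.01 and 8.03 to 8.62 in the 4 sources in the same order. In b.End5 cells, a transformed line, Itga8 was high and the smooth muscle and fibroblast sums were the lowest of the 4 sources. The part of fibroblasts, smooth muscle cells and pericytes in the level of Itga8 was not tested in any source.

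The Itga8 promoter is shown as that of the subunit called in all 3 comparisons with non-cultured cells and between the cultures. It lies at chr2:12301945-12302194 on the minus strand of GRCm38.p6 in RefSeq, and is printed 5′ to 3′ on the gene's strand. On that strand the gene record begins at 12301985, so the end of this window is within the annotated gene.
Itga8: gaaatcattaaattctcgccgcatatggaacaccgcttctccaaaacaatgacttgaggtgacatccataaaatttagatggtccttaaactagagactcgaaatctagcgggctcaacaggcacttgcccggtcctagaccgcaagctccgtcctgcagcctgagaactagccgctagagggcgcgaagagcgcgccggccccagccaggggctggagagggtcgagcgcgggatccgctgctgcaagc
It has a GC content of 56.4%, and 0 of the 6 motifs given above were found in it, so it has no capitals.

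Itga5, the α chain of the fibronectin receptor, read 7.59, 7.51 and 7.20 in non-cultured arrays. It read 9.28, 9.004 and 9.35 in single-cultured, 8.93, 9.09 and 9.27 in co-cultured and 8.31, 8.65 and 8.02 in b.End5 arrays. Every cultured array was above every non-cultured one, and b.End5 cells lay between. The differences were 1.78 ± 0.18 (3.43-fold, adjusted p = 1.69e-05), 1.66 ± 0.18 (3.17-fold, adjusted p = 2.41e-05) and, under 2-fold, 0.89 ± 0.18 (adjusted p = 0.00184). Without b.End5 replicate 3 the last was 1.05 and was called.

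Itgav, the α chain of the vitronectin receptors, which also release TGF-β from its latent complex, read 8.01, 7.95 and 7.96 in non-cultured arrays. Single-cultured arrays read 10.17, 9.79 and 10.44, co-cultured arrays 10.002, 9.82 and 9.67, and b.End5 arrays 9.33, 9.38 and 9.50. No array of the other sources overlapped with the narrow range of the non-cultured ones. The differences were 2.16 ± 0.16 (4.48-fold, adjusted p = 1.16e-06), 1.86 ± 0.16 (3.64-fold, adjusted p = 3.29e-06) and 1.43 ± 0.16 (2.70-fold, adjusted p = 1.72e-05).

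Its 2 measured β partners that rose in culture parted in the cell line. Itgb3, the β chain of the vitronectin receptor of sprouting endothelium and of the platelet fibrinogen receptor, read 4.75, 4.86 and 4.91 in non-cultured arrays. It read 6.87, 6.59 and 7.59 in single-cultured, 7.21, 7.84 and 7.81 in co-cultured and 8.13, 8.34 and 8.25 in b.End5 arrays. The differences were 2.18 ± 0.24 (adjusted p = 3.03e-05), 2.78 ± 0.24 (adjusted p = 3.51e-06) and 3.40 ± 0.24 (10.6-fold, adjusted p = 3.62e-07), so all 3 other sources were higher. Itgb5, whose product with that of Itgav binds vitronectin, read 6.11, 6.16 and 6.29 in non-cultured and 7.43, 7.86 and 7.74 in single-cultured arrays. It read 8.50, 8.90 and 7.24 in co-cultured arrays but 4.72, 4.83 and 4.78 in b.End5 arrays, below all others. The differences from non-cultured cells were 1.49 ± 0.32 (adjusted p = 0.0043), 2.03 ± 0.32 (adjusted p = 0.000455) and -1.41 ± 0.32 (adjusted p = 0.00435). Itgb6, a further β partner of Itgav that is restricted to epithelia, was at or under the no-target level on all 12 arrays, between 2.95 and 3.28.

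The collagen receptors Itga1 and Itga2, which pair with Itgb1 and also bind laminins, differed in pattern. Itga1 read 12.10, 12.04 and 12.14 in non-cultured, 11.51, 11.81 and 11.53 in single-cultured and 11.46, 11.91 and 11.74 in co-cultured arrays. In b.End5 cells it read 5.74, 4.63 and 5.997. All 9 primary arrays lay between 11.46 and 12.14, and the cell line lay far below them. That difference, -6.64 ± 0.28, was the largest fall among the subunits in b.End5 cells (99.6-fold, adjusted p = 5.81e-09), and was -6.23 without b.End5 replicate 2. Itga2 was low in non-cultured arrays at 5.68, 5.23 and 4.95, and higher in single-cultured arrays at 7.93, 7.81 and 8.36. Co-cultured arrays read 7.09, 7.37 and 7.41, and b.End5 arrays 7.74, 5.69 and 7.59. The differences were 2.75 ± 0.44 (6.72-fold, adjusted p = 0.00056), 2.01 ± 0.44 (4.02-fold, adjusted p = 0.0038) and 1.72 ± 0.44 (adjusted p = 0.00826), and the last was 2.38 without b.End5 replicate 2.

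Of the laminin-binding α chains Itga3, Itga6 and Itga7, Itga3 was called higher in co-cultured and Itga6 lower in b.End5 cells. Itga6, the main laminin-binding α chain of brain endothelium, read 11.90, 11.50 and 11.44 in non-cultured and 11.55, 11.21 and 11.70 in single-cultured arrays, which overlapped. It read 10.71, 10.94 and 11.45 in co-cultured arrays and 10.58, 10.55 and 10.60 in b.End5 arrays. Of its differences, -0.58 ± 0.20 in co-cultured cells (adjusted p = 0.0403) was under 2-fold, and -1.04 ± 0.20 in b.End5 cells (adjusted p = 0.00137) was called but was -0.89 without non-cultured replicate 1. Itga3, whose product binds the laminins with an α5 chain, read 8.001, 7.77 and 8.04 in non-cultured, 8.85, 8.46 and 9.26 in single-cultured and 9.02, 9.02 and 9.28 in co-cultured arrays. Both cultures were higher without overlap, by 0.92 ± 0.26 (adjusted p = 0.0219, under 2-fold) and 1.17 ± 0.26 (adjusted p = 0.00483). The b.End5 arrays, at 8.09, 7.06 and 8.02, overlapped with the non-cultured ones. Itga7, the laminin receptor of muscle, lay between 4.85 and 6.57 on all arrays and was called in no comparison. Itgb4, which pairs with Itga6 in hemidesmosomes, stayed between 5.32 and 5.67 in all primary arrays and read 7.58, 7.72 and 7.53 in b.End5 arrays, a rise of 2.05 ± 0.11 (4.13-fold, adjusted p = 3.68e-08).

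Itga4 and Itga9, close relatives that bind VCAM1 and, for Itga9, tenascin-C, changed in opposite directions in the cell line. Itga4 read 9.07, 8.82 and 8.69 in non-cultured, 8.83, 8.71 and 9.15 in single-cultured and 9.07, 8.99 and 9.45 in co-cultured arrays, which overlapped. The b.End5 arrays read 4.73, 4.66 and 4.81, 17.5-fold lower than non-cultured cells (-4.13 ± 0.16, adjusted p = 3.07e-09). Itga9 read 5.94, 5.29 and 5.91 in non-cultured arrays and 10.67, 10.56 and 10.85 in b.End5 arrays, 31.6-fold higher (4.98 ± 0.24, adjusted p = 1.75e-08). Among the primary cells, single-cultured arrays at 7.19, 6.66 and 6.78 were 1.17 ± 0.24 higher (adjusted p = 0.00341), and 0.96 without non-cultured replicate 2. Co-cultured arrays at 6.93, 6.88 and 6.13 were 0.94 ± 0.24 higher (adjusted p = 0.0106), under 2-fold. Itgb7, the partner of Itga4 and Itgae on lymphocytes, lay between 5.20 and 6.38, and Itgae, which binds E-cadherin, between 4.47 and 5.63, and both were called in no comparison.

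Itga2b, the α chain of the platelet fibrinogen receptor, read 7.32, 7.27 and 7.69 in non-cultured and 6.31, 6.05 and 6.46 in single-cultured arrays, a difference of -1.15 ± 0.23 (adjusted p = 0.00245). Co-cultured arrays at 5.996, 6.97 and 6.77 differed by -0.84 ± 0.23 (adjusted p = 0.0129), under 2-fold. The b.End5 arrays, at 7.89, 7.75 and 7.68, were 2.82-fold higher than single-cultured ones (adjusted p = 0.000372). Of 7 platelet markers, 1 was called lower (Ppbp, a platelet chemokine) in each of the 3 other sources than in non-cultured cells. Over all genes, 5.82%, 6.2% and 9.06% were called lower in single-cultured, co-cultured and b.End5 cells, and 7.18%, 9.1% and 9.1% higher. Pf4, another platelet chemokine, was called higher in co-cultured (2.01 ± 0.55) and b.End5 cells (2.01 ± 0.55). The first of these calls ended without non-cultured replicate 1 or 2 or co-cultured replicate 1, and the second without non-cultured replicate 1 (adjusted p up to 0.0614). The log2 of their sum ran from 9.21 to 9.96 in non-cultured, 9.22 to 9.90 in single-cultured, 9.61 to 11.52 in co-cultured and 9.97 to 11.36 in b.End5 arrays, with Treml1 at or under the no-target level in the last 3 and Ppbp in single-cultured and b.End5 cells. The mean log2 level of the 7 platelet markers ran from 5.79 to 6.05 in non-cultured and 5.23 to 5.27 in single-cultured arrays. It ran from 5.35 to 5.98 in co-cultured and 5.49 to 5.72 in b.End5 arrays. The median difference of these markers from non-cultured cells was -0.46 in single-cultured, -0.47 in co-cultured and 0.12 in b.End5 cells. The part of platelet RNA in the level of Itga2b was not tested.

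**Figure D3:**
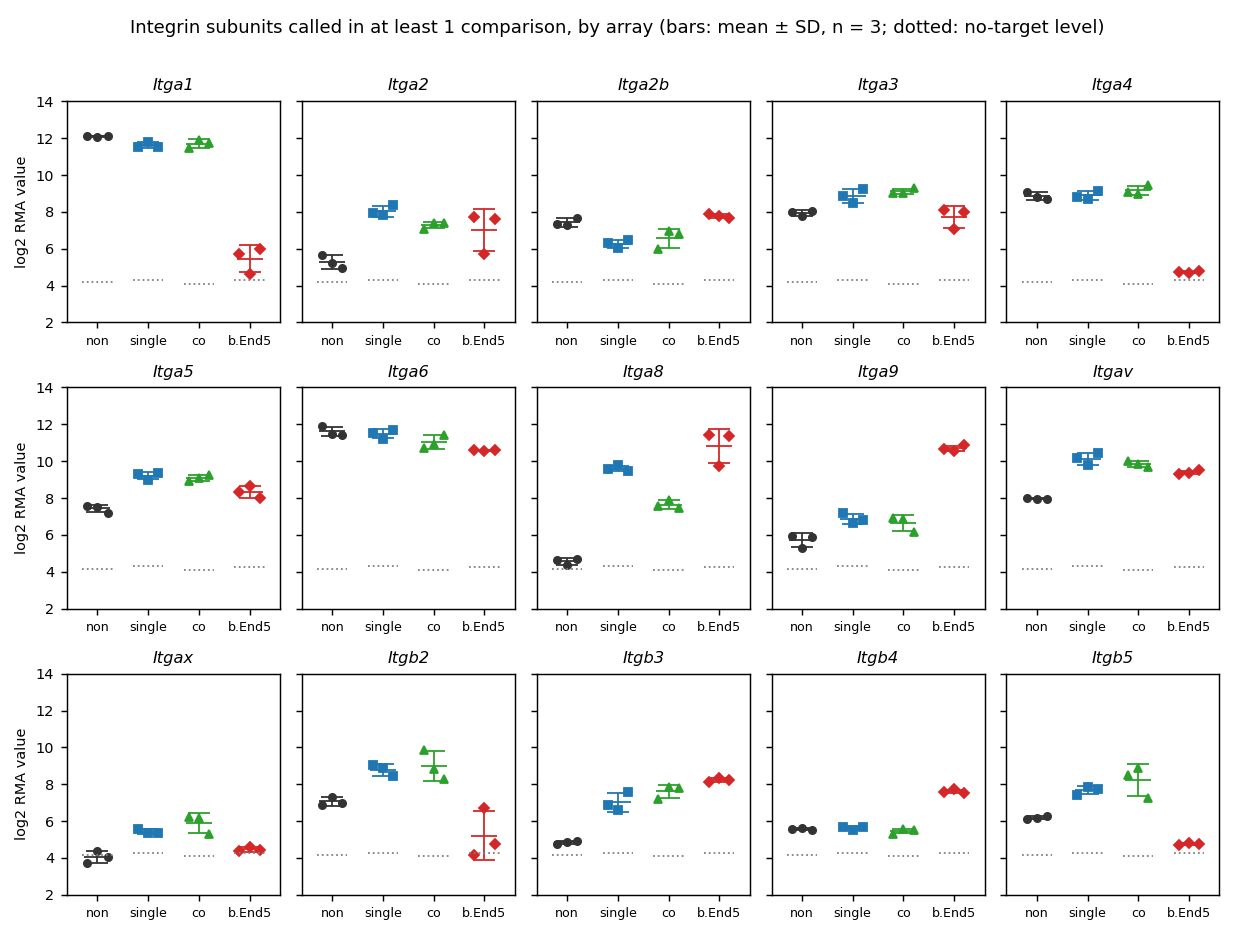
Log2 RMA value of the 15 integrin subunits called in at least 1 comparison, on each array, with the mean and SD of 3 arrays as bars and the mean no-target level as a dotted line. On the horizontal axis, non, single and co stand for non-cultured, single-cultured and co-cultured cells. Itga1 and Itga4 are low only in the b.End5 arrays (4.63 to 5.997 and 4.66 to 4.81), Itgb4 and Itga9 are highest there, and Itgav and Itgb3 are higher in all 3 other sources than in non-cultured arrays.

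The leukocyte integrins share the β chain Itgb2, which pairs with Itgal on lymphocytes and with Itgam or Itgax on myeloid cells and is known from leukocytes rather than endothelium. Itgb2 read 6.89, 7.32 and 6.999 in non-cultured, 9.03, 8.88 and 8.43 in single-cultured and 9.86, 8.81 and 8.27 in co-cultured arrays. It read 4.17, 6.72 and 4.74 in b.End5 arrays, with replicate 2 well above the other two and replicate 1 at or under the no-target level. The differences from non-cultured cells were 1.71 ± 0.56 (adjusted p = 0.0399), 1.91 ± 0.56 (adjusted p = 0.0201) and -1.86 ± 0.56 (adjusted p = 0.0208), and the last was -2.61 without b.End5 replicate 2. These calls were close to the threshold. The first ended with arrays centred on their medians (adjusted p = 0.0526) or on housekeeping genes (adjusted p = 0.0501), and without any 1 of the non-cultured or single-cultured arrays or co-cultured replicate 2 (adjusted p up to 0.114). The second ended without non-cultured replicate 1 or 3 or co-cultured replicate 1 (adjusted p up to 0.0822), and the third without non-cultured replicate 2 or b.End5 replicate 1 or 3 (adjusted p up to 0.0867).

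Itgax, the α chain of dendritic cells and activated microglia, had 2 of 3 non-cultured arrays at or under the no-target level. Its arrays read 3.71, 4.36 and 4.03 in non-cultured, 5.57, 5.34 and 5.37 in single-cultured, 6.24, 6.17 and 5.29 in co-cultured and 4.35, 4.60 and 4.45 in b.End5 cells. Both cultures of primary cells were above non-cultured cells without overlap, by 1.39 ± 0.24 (adjusted p = 0.000947) and 1.86 ± 0.24 (adjusted p = 9.12e-05). No fold is given, as the non-cultured mean, 4.04, lay under the no-target level of those arrays. Itgam, the α chain of microglia and macrophages, lay between 3.26 and 4.26 and was at or under the no-target level on all non-cultured and b.End5 arrays and on 2 of 3 arrays of each culture. Itgal, the lymphocyte α chain, lay between 4.49 and 5.27, and neither was called in any comparison. Of 15 microglia and macrophage markers, 8 were called higher in single-cultured (7.18% of all genes) and 9 in co-cultured (9.1%) than in non-cultured cells. In b.End5 cells 1 was higher, near the share of all genes (9.1%), and 7 were lower (9.06%). The log2 of their sum ran from 10.18 to 10.90 in non-cultured, 12.15 to 13.19 in single-cultured, 12.22 to 13.67 in co-cultured and 8.88 to 9.66 in b.End5 arrays, where Ptprc, the pan-leukocyte phosphatase, and P2ry12 were at or under the no-target level. The mean of these markers read 7.91, 7.19 and 7.28 in single-cultured and 8.41, 7.57 and 7.24 in co-cultured arrays. In both cultures replicate 1 was highest for this mean and for Itgb2. Replicates 2 and 3 of the single-cultured cells were in opposite order for the mean and for Itgb2. The part of microglia and macrophages in the levels of Itgb2 and Itgax was not tested.

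**Figure D4:**
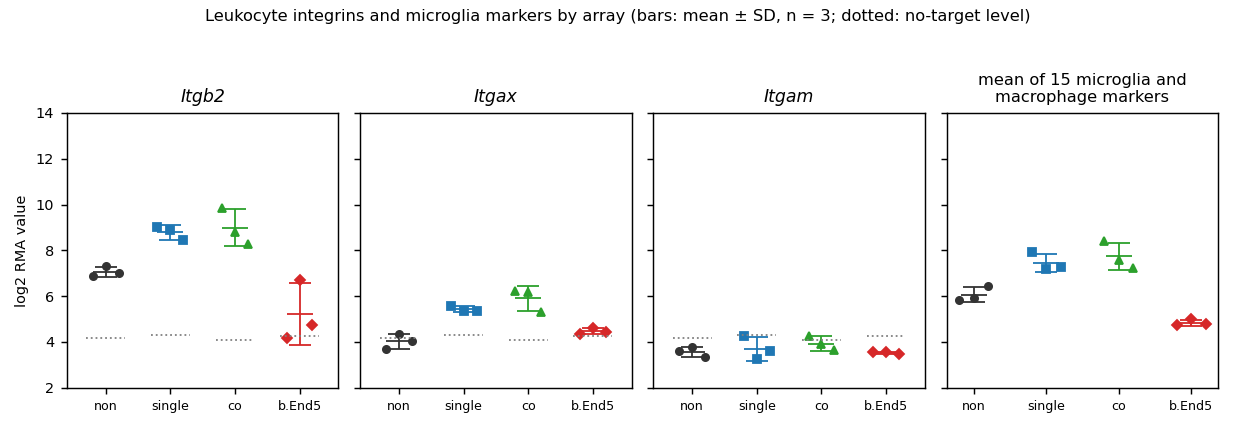
Log2 RMA value of Itgb2, Itgax and Itgam on each array, and the mean log2 value of 15 microglia and macrophage markers on the same arrays, with the mean and SD of 3 arrays as bars and the mean no-target level as a dotted line. On the horizontal axis, non, single and co stand for non-cultured, single-cultured and co-cultured cells. Itgb2 and the marker mean are higher in both cultures than in non-cultured cells and low in b.End5 cells, while Itgam lies between 3.26 and 4.26 throughout.

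The comparison of co-cultured with single-cultured cells addresses the effect of glia in the lower well. Apart from Itga8, Lamb2 passed the test at -0.73 ± 0.16 (95% interval from -1.09 to -0.38, adjusted p = 0.0383), which was under 2-fold and without overlap of the arrays. Itga2 was lower on every co-cultured array, at -0.74, but its interval from -1.70 to 0.21 included 0 (adjusted p = 0.5). These 3 subunits, 9.38% of the 32, were the ones whose arrays did not overlap, where 19.9% of all genes did not. Of the subunits known in brain endothelium, the 95% interval ran from -0.67 to 0.27 for Itgb1, -0.51 to 0.28 for Itga5, -0.64 to 0.04 for Itgav and -0.13 to 0.53 for Lama5. For Itga6 it ran from -0.89 to -0.02 and left out 0, but the difference of -0.46 did not pass the test after adjustment (adjusted p = 0.329). The intervals were wider for Lama4, from -1.13 to 0.19, Lamb1, from -0.89 to 1.10, and Itgb2, from -1.02 to 1.43, so a 2-fold difference lies within them. Itgb5, at 0.54 (interval from -0.17 to 1.24), became 1.02 and was called without co-cultured replicate 3. Itgb3 also had a higher mean with glia, at 7.62 in co-cultured against 7.02 in single-cultured arrays. Its arrays overlapped and it did not pass the test. For Itga1 the interval ran from -0.53 to 0.70.

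The b.End5 line was also set against single-cultured cells, as both were grown in culture. There, 6 subunits were higher and 10 lower (11 without b.End5 replicate 2), where 6.25% of all genes were called higher and 7.82% lower, and the median of the 32 differences was -0.67, beside 0.082 over all genes. Without the 2-fold minimum 7 were higher and 15 lower (16.2% and 14% of all genes), and the arrays of 23 did not overlap (41.5%). The falls covered 5 of the 10 laminin chains, with Lama4 at -1.78 ± 0.30 (adjusted p = 0.000861), Lamc1 as given above, and Lama1 and Lamb1 among them. Without b.End5 replicate 2 the difference for Lama4 was -1.39. For Lamb1 the difference was -1.42 ± 0.45 (adjusted p = 0.0351), which was -0.69 and no longer called without b.End5 replicate 2, and lost its call also without any 1 single-cultured array (adjusted p up to 0.0869) or with only the 2 groups fitted (adjusted p = 0.118). Lama5 alone among the laminins was called higher. Of the integrins, Itga1, Itga3, Itga4, Itgb2 and Itgb5 were lower and Itga2b, Itga8, Itga9, Itgb3 and Itgb4 higher. Itga9 stood out at 3.81 ± 0.24 (14.1-fold, adjusted p = 3.85e-07) and Itgb5 at -2.90 ± 0.32 (7.48-fold lower, adjusted p = 3.46e-05). The call for Itga3, -1.13 ± 0.26 (adjusted p = 0.00688), was under 2-fold without b.End5 replicate 2 (-0.80) or without single-cultured replicate 3 (-0.93). The call for Itga8, 1.23 ± 0.35 (adjusted p = 0.0211), rested on overlapping arrays and ended without single-cultured replicate 1 or 3 or b.End5 replicate 1 or 3 (adjusted p up to 0.0845) and with only the 2 groups fitted (adjusted p = 0.0859).

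Around the subunits, other proteins of the basement membrane also changed. Of 14 measured partners of laminins, 5 were higher and 1 lower in single-cultured, 5 higher and 2 lower in co-cultured and 2 higher and 4 lower in b.End5 cells than in non-cultured cells. Of all genes, 7.18%, 9.1% and 9.1% were called higher and 5.82%, 6.2% and 9.06% lower in the same comparisons, and the counts of this and the next 4 lists are to be read against these shares. The 1 lower partner in single-cultured cells, 7.14% of the list, is near that share. The median differences were 0.42, 0.36 and -0.03. Col15a1, a collagen of the outer face of vessel basement membranes, was higher by 6.32 ± 0.85, 3.91 ± 0.85 and 4.27 ± 0.85, the last 5.57 without b.End5 replicate 2. Its 3 single-cultured arrays read 12.93, 12.92 and 12.67, against 5.52, 6.84 and 7.21 in non-cultured cells. Agrn, a proteoglycan that binds the laminin arm, was lower, with differences of -1.60 ± 0.25 in co-cultured and -1.85 ± 0.25 in b.End5 cells. Ntn1, a laminin-related guidance cue, was lower in the cultures, at -1.49 ± 0.22 and -1.58 ± 0.22, and higher by 2.98 ± 0.22 in b.End5 cells. The count of higher partners in co-cultured cells was 3 without non-cultured replicate 2 or 3 or co-cultured replicate 3, and with arrays centred on housekeeping genes. The count of lower ones in single-cultured cells was 2 without replicate 2 or 3 of the non-cultured cells, and without replicate 1 or 3 of the single-cultured cells. It was also 2 with arrays centred on medians or housekeeping genes or scaled by cyclic loess.

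Laminin receptors that are not integrins comprised 7 measured genes, of which 3, 4 and 3 were higher and 1 was lower in single-cultured, co-cultured and b.End5 cells, with median differences of 0.58, 1.29 and 0.84. Mcam, an adhesion molecule of endothelium that binds the laminin α4 chain, was higher by 2.79 ± 0.19, 3.13 ± 0.19 and 3.63 ± 0.19. It read 7.76, 7.96 and 8.05 in non-cultured and no less than 10.60 in all other arrays. Bcam, which binds the laminin α5 chain, was the lower one, at -1.14 ± 0.22, -1.39 ± 0.22 and -1.02 ± 0.22. It fell under 2-fold in single-cultured cells without non-cultured replicate 1 (-0.97), and in b.End5 cells without non-cultured replicate 1 (-0.85) or b.End5 replicate 1 (-0.97) or 2 (-0.87). The count of lower receptors in b.End5 cells was 2 under the 3 other scalings and without non-cultured replicate 2 or 3 or b.End5 replicate 3. The second was Dag1, the dystroglycan gene, at -0.96 ± 0.25 as deposited and from -1.03 to -1.09 under these settings.

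Of 21 integrin ligands other than laminins, 6 were higher and 3 lower in single-cultured, 7 higher and 3 lower in co-cultured and 3 higher and 7 lower in b.End5 cells, with medians of 0.77, 0.50 and -0.16. Tnc, the tenascin bound by the product of Itga9, read 4.57, 4.40 and 4.35 in non-cultured, 12.86, 12.63 and 12.97 in single-cultured, 13.17, 12.92 and 12.72 in co-cultured and 6.81, 7.13 and 6.49 in b.End5 arrays. Those are differences of 8.38 ± 0.18, 8.50 ± 0.18 and 2.37 ± 0.18. Thbs1, an adhesive glycoprotein that inhibits vessel growth, was higher by 6.54 ± 0.20 and 6.41 ± 0.20 in the cultures. Vtn, the ligand of the Itgav receptors, was lower, at -3.95 ± 0.42, -2.54 ± 0.42 and -6.53 ± 0.42 (2 of 3 b.End5 arrays at or under the no-target level), where Itgav, Itgb3 and, in the cultures, Itgb5 were higher. Npnt, a ligand of the Itga8 receptor, was lower in both cultures, at -1.31 ± 0.15 and -1.57 ± 0.15.

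Adaptors and focal adhesion proteins, which join integrins to actin, comprised 25 measured genes. Of these, 6 were higher and 3 lower in single-cultured, 5 higher and 3 lower in co-cultured and 5 higher and 4 lower in b.End5 cells, with medians of 0.36, 0.31 and 0.04. The 5 in b.End5 cells became 3 without non-cultured replicate 3 or any 1 b.End5 array and 2 without non-cultured replicate 2, and 1 with arrays centred on medians or housekeeping genes or scaled by cyclic loess. Tns3, a tensin that binds β chain tails, was higher by 3.05 ± 0.22, 3.02 ± 0.22 and 3.46 ± 0.22. Tln2, the minor talin, was lower, at -1.47 ± 0.36 in co-cultured and -2.39 ± 0.36 in b.End5 cells. Of 7 integrin-associated membrane proteins, 2, 3 and 1 were higher, with medians of 0.66, 0.50 and 0.22. The tetraspanin Cd9 was among them in all 3 comparisons, by 1.41 ± 0.25, 1.51 ± 0.25 and 2.21 ± 0.25, and Cd82 in the cultures by 2.51 ± 0.34 and 1.99 ± 0.34. All differences in these lists that are said to be higher or lower were called by the same rule as the subunits.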

How the data were processed

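The deposited table holds log2 values from 12 Affymetrix arrays that the authors computed with RMA (background correction, quantile normalisation, probe-set summary), per the submitters' processing notes. Neither the version of RMA nor the probe-set definition is given in the sources used here. Per the labels' protocols, total RNA was DNase-treated and cDNA was amplified from small amounts, which can bias levels between transcripts. Of 21625 probe sets, 64 were controls. RefSeq (GRCm38.p6) gave 1 symbol for 16537, several for 0 and none for 5024. For 987 genes with over 1 probe set, the one with the highest mean was kept, leaving 15204 genes without a filter on low values. Of the laminin chains, 1 enters the counts and medians but is not reported here by itself. Itgam and Itgb4 had 2 probe sets each.

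Differences came from limma 3.58.1 in R 4.3.3 (lmFit, eBayes), with 4 group means over 12 arrays and 8 residual degrees of freedom. Calls needed an adjusted p (Benjamini-Hochberg over all genes) under 0.05 and a log2 difference of at least 1. Folds against a group at or under the no-target level on every array are bounds. The number of arrays limits the precision. Simulated data of 15204 genes had the same spread per gene in all sources, and 100 genes were changed by 1.5 log2 units. Of these, 86% were recovered in co-cultured and 94% in b.End5 against non-cultured cells. The simulation held fewer changed genes than were called here, and no array that stands apart as b.End5 replicate 2 does. These shares are therefore not the recovery in the real comparisons. Python 3.11.15, pandas 2.3.3 and matplotlib 3.10.9 made tables and figures.

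The subunits and all lists were chosen with earlier results of these data known. Named were subunits that were called, at or under the no-target level on all arrays, or known in brain endothelium, and from each list per comparison, up to 2 called genes each that rose or fell most. Of these list genes, the text gives those that show a list's range.

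Replicate numbers of the labels did not enter the main model. Between the 2 cultures, residuals of same-numbered arrays had correlations of 0.227, 0.135 and 0.232, all above 0.1, so these numbers were taken to pair the arrays, although no label says what they share. The standard errors, intervals and p-values of subunits given between the cultures are from the main model and leave this pairing out. With the replicate number as a block within both cultures, Itga8 was still called. No further pair of groups had all 3 above 0.1. Alternatives were other scalings of the arrays, a filter on dim genes, averaged probe sets, only the groups compared, a replicate block, a trended robust fit, no minimum difference and each array left out in turn.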

Additional observations from a re-analysis of the deposited data

How the results depend on the processing

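Over 22 alternatives, 0 of the 60 calls of subunits reversed, and 10 were lost under at least 1 alternative that kept the subunit. Calls of subunits that the filter on dim genes removed from the fit, such as Lamc3, are not counted among the 10. The fit of 2 groups, the replicate blocks, the trended fit, averaged probe sets and no minimum left the differences of subunits unchanged. No call could reverse under those. Among the 10 lost calls were Itgb2 in 3 comparisons, Lamb1, Itga3 and Itga8 in b.End5 against single-cultured cells, Itga8 between the cultures, and Itga9 and Itga6, as given above. In turn, 12 differences that were not called became so under at least 1 alternative. Of 32 uncalled differences, 67 values under the alternatives changed sign. In the main model these differences were at most 0.3723 in size. Without minimum difference, 6 subunits in place of 2 were lower in co-cultured than in non-cultured cells, and 2 in place of 1 than in single-cultured cells. With the dimmest 30% of genes left out, which removed subunits from the fit, the first of these counts was 1. Leaving out each array in turn gave 10 to 13 higher and 3 lower for single-cultured, 11 to 12 and 2 to 3 for co-cultured, and 7 to 8 and 7 to 8 for b.End5 against non-cultured cells. Between the cultures it gave 0 to 1 higher and 0 to 1 lower: without co-cultured replicate 3, Itgb5 was higher, and without single-cultured replicate 1, Itga8 was no longer called. For b.End5 against single-cultured cells it gave 5 to 6 higher and 8 to 11 lower, and 24 to 26 subunits passed the test over all sources. With the replicate block, all counts of called subunits stayed as reported, 12 and 3, 11 and 2, 7 and 8, 0 and 1, and 6 and 10. Centring arrays on their medians shifted every difference by -0.15 between co-cultured and non-cultured cells, and centring on housekeeping genes by -0.13 there and by -0.10 in single-cultured cells. Arrays give no depth. For subunits near the no-target level, such as Itgam, Itgb6 and Itgax in non-cultured cells, signal over background limits what can be seen. The causes of lost calls were not tested.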
